A study of Mus musculus with 10 samples.

Results

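The proteasome subunit genes described here were the annotated mouse genes whose symbol starts with Psma, Psmb, Psmc, Psmd, Psme, Psmf or Psmg and a digit. The 3 immunoproteasome genes Psmb8, Psmb9 and Psmb10 were left out. Of 46 annotated genes with such a symbol, 38 had a probe with a detection p-value below 0.05 on 2 or more of the 10 arrays, among 9744 genes that passed the same filter. All 58 probes of these 38 genes that passed were read, and the probe with the highest mean level stood for each gene in the tests.

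The data were Illumina bead array profiles of total RNA from purified circulating neutrophils of female nude NCR mice. Such mice are athymic and have few mature T cells, and every group shared this background. Freshly frozen neutrophils came from control mice without a tumor (2 arrays) and from mice that bore a 4T1 tumor, a mouse mammary carcinoma line (2 arrays). Neutrophils of control mice were also kept for 2 h in OptiMEM with 0.5% FBS, with 1 array for each of 6 conditions: no addition, mCCL2, mCCL5, rhGCSF, rhGCSF with mCCL2, and rhGCSF with mCCL5. The chemokine concentration was 20 ng/ml, and a separate G-CSF concentration, the age of the mice and the number of mice behind an array were not given in the sources used here. Nothing stated that replicate arrays came from separate mice, so the p-values cover just the spread among the arrays at hand, whose small number sets the precision. No cultured condition had a replicate array. The spread in culture is therefore the departure from added effects of G-CSF and chemokine, moderated over all genes. It does not measure variation between repeated cultures.

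The proteasome degrades proteins tagged with ubiquitin. Its core particle is a stack of rings in which the alpha subunits (Psma genes) gate the entry and the beta subunits (Psmb genes) hold the proteolytic sites, of which Psmb5, Psmb6 and Psmb7 carry the constitutive ones. A regulatory particle caps the core, with a base of ATPases (Psmc genes) that unfold the substrate and with non-ATPase subunits (most Psmd genes) that bind and remove ubiquitin, while Psme products form other caps and Psmg products are chaperones of core assembly. Neutrophils carry a mixture of constitutive and immunoproteasome cores, and proteasome genes are known to be transcribed together in response to the factor Nfe2l1 when proteasome activity is limiting.

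By role, the 38 genes comprised 5 alpha ring genes, 7 beta ring genes, 5 ATPases, 2 base or ubiquitin receptor genes (Psmd1 and Psmd4), 7 lid genes, 3 base assembly chaperones, 3 core assembly chaperones and 4 activators. The remaining 2, Psmc3ip and Psme3ip1, met the rule by their letters but do not encode subunits. Psmc3ip encodes a meiotic recombination factor, and the product of Psme3ip1 binds the Psme3 activator. Psma8, counted in the alpha ring, encodes a testis-type alternative to Psma7. The other 36 genes include Psma8, assembly chaperones and the interferon-inducible activators Psme1 and Psme2, so the label of constitutive subunits does not hold for all of them. The main probe was detected on all 10 arrays for 30 of the 38 genes. Just inside the threshold, Psmd9 was detected on 2 arrays, with log2 levels from 4.31 to 4.96, and Psma8 and Psmd6 on 4 arrays. Just outside it, Psmd2 was detected on 1 array, with log2 levels from 4.31 to 4.86. Psma1, Psma3, Psma6, Psmb11, Psmc6, Psmd3 and Psmg4 were detected on 0 arrays and have no measured change here.

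Levels are given as log2 of the background-corrected, quantile-normalized signal of 1 probe, and can be compared between arrays but not between genes. On this scale the median level of the 38 genes was 8.37 and 8.47 on the fresh control arrays, 8.10 and 8.07 on the fresh tumor arrays, 8.33, 8.48 and 8.50 in culture without G-CSF, and 8.82, 8.79 and 8.91 in culture with it. The last 3 arrays were the highest of the 10.

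**Figure D1:**
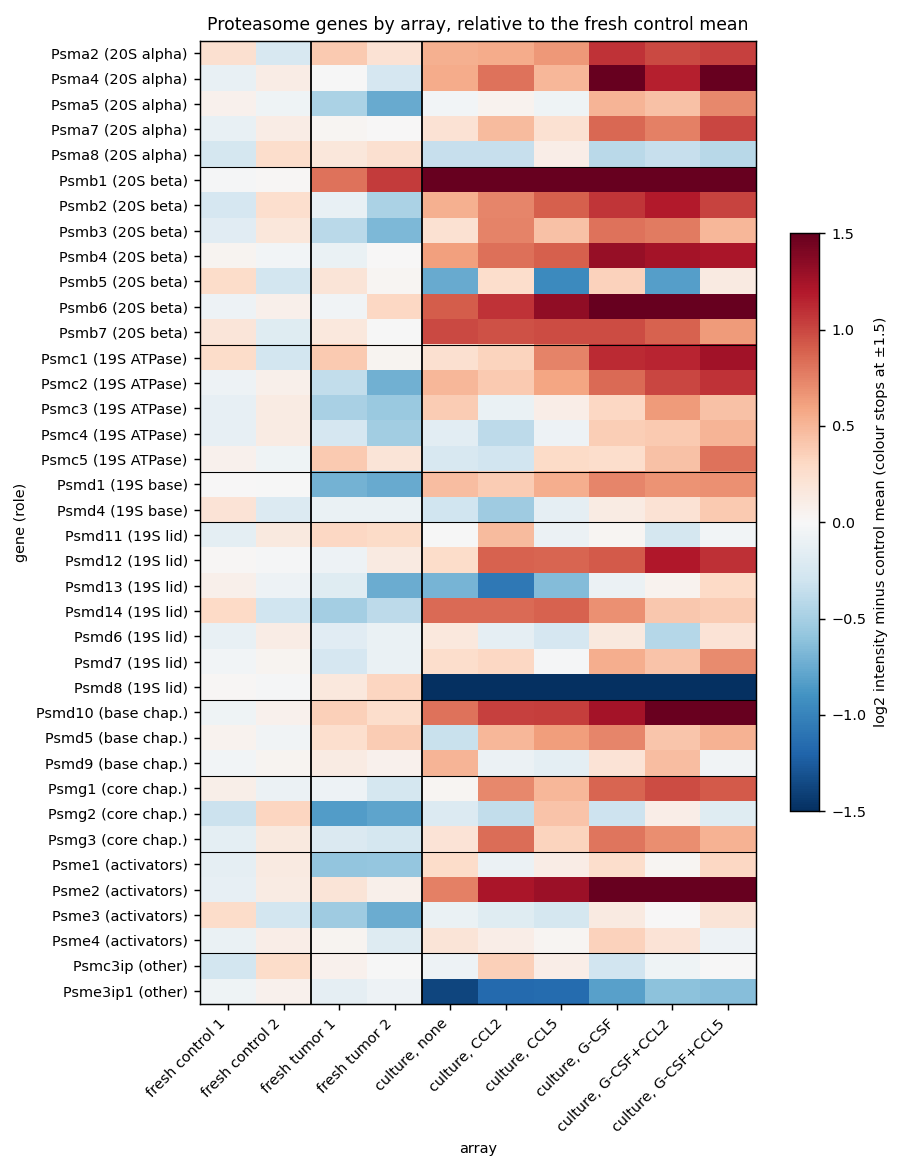
Level of each of the 38 genes on each of the 10 arrays. It is drawn as the log2 level minus the gene's mean over the 2 fresh control arrays, with colours that stop at -1.5 and 1.5. Rows are ordered by role and columns by group. For 21 rows all 3 arrays with G-CSF lie above the other 3 cultured arrays, and Psmd8 and Psmb1 separate fresh from cultured arrays in opposite directions.

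The purity of the cells was read from marker genes. Of 10 neutrophil markers, 9 were tested (Ly6g had no probe that passed), and their summed signal was 76409 to 86996 over the fresh arrays and 59213 to 64992 in culture. Of 50 markers of other blood cells, 31 were tested. In tumor-bearing mice 22 of them fell and 0 rose, and with G-CSF 20 fell and 0 rose. Their summed signal was 31225.3 and 28613.1 on the control arrays, 20237.8 and 16311 on the tumor arrays, 27071.4 to 28305.8 in culture without G-CSF, and 9392.8 to 10393.4 in culture with it. The 3 erythroid markers tested gave 17596.6 and 17123.4 of the control sums, 13902.3 to 15249.4 in culture without G-CSF and 3371 to 4041.8 with it. Monocyte markers summed to 2197.1 and 2261.8 on the control arrays and to 2172.5 and 2261.1 on the tumor arrays, and 2 of 5 fell. Some defining markers had no annotated probe that passed (Cd79a of B cells, Lck of T cells, Ncr1 of NK cells). Of the lists, 5 of 7 B cell, 4 of 8 T cell and 2 of 5 NK cell markers were tested. Of these, 4 B cell, 4 T cell and 2 NK cell markers fell in tumor-bearing mice, and the same numbers fell with G-CSF. The summed B cell signal was 2683.3 and 2250.5 on the control arrays and 402 and 349.4 on the tumor arrays. In culture against fresh control, 7 of the 31 were higher and 13 lower. These levels moved with all 3 comparisons described next, and their part in the results on proteasome genes was not tested. In whole-population RNA such as this, fewer cells of a type and less RNA per cell cannot be told apart.

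The first comparison asked how G-CSF, the main growth factor of neutrophils, changed the cultured cells. Of the 38 genes, 13 rose with G-CSF and 0 fell, where 14.4% of all 9744 genes rose and 10.8% fell (limma across the 6 cultured arrays with the chemokine as a term, Benjamini-Hochberg adjusted p below 0.05). All 3 arrays with G-CSF were above all 3 without it for 21 of the 38 genes, against 23.7% of all genes, and below them for 1 gene, against 17.2%. In the 3 pairs of arrays matched by chemokine, 23 genes were higher in every pair, against 31% of all genes, and 3 were lower in every pair (Psmb7, Psmd14 and Psmc3ip), against 23%. The change was above 0 for 32 of the 38 genes, against 54.8% of all genes. The median change of the 38 genes was 0.38 on the log2 scale and that of all genes was 0.05, with single members from -0.37 to 0.90.

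**Figure D2:**
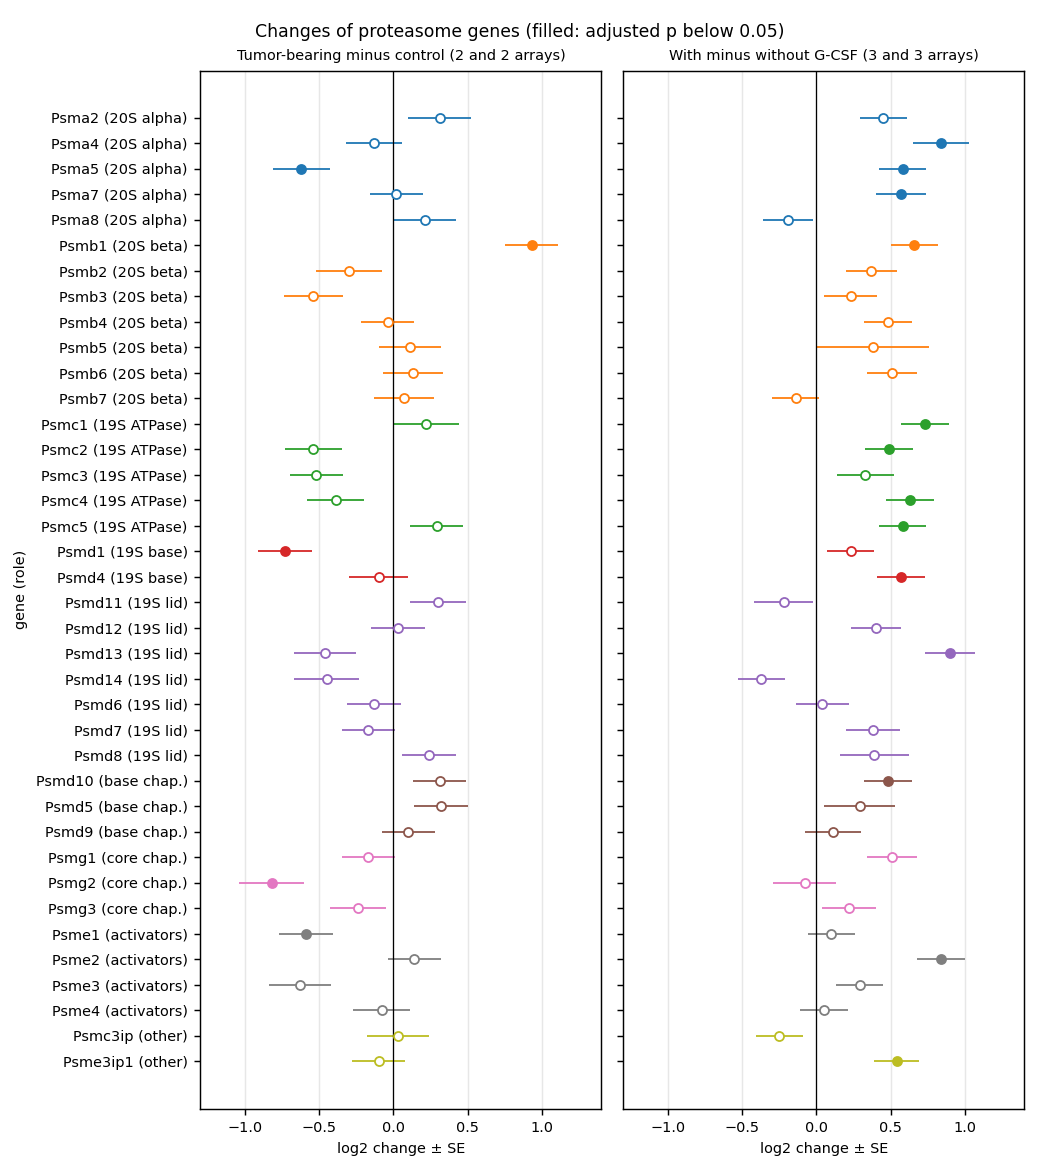
Log2 change of each of the 38 genes in tumor-bearing against control mice and with against without G-CSF in culture, with bars of 1 standard error. Filled points have an adjusted p below 0.05, and a vertical line marks 0. With G-CSF 13 points are filled and all lie above 0, and in tumor-bearing mice 5 are filled, of which Psmb1 alone lies above 0.

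Among the alpha ring genes, 3 of 5 rose with G-CSF. Psma4 stood at 9.82, 10.07 and 9.76 without G-CSF and at 10.89, 10.43 and 10.85 with it, in the order no chemokine, CCL2 and CCL5. Every array with G-CSF was above every array without, and the rise was 0.84 ± 0.19 (log2, SE), or 1.79-fold (adjusted p = 0.0117). Psma5 was at 9.52, 9.62 and 9.50 without G-CSF and at 10.07, 10.01 and 10.28 with it. Its groups did not overlap and it rose by 0.58 ± 0.16 (adjusted p = 0.03). Psma7 was at 9.46, 9.71 and 9.47 without and 10.10, 10.00 and 10.24 with G-CSF, again with no overlap (0.57 ± 0.17, adjusted p = 0.0358). Psma2 did not pass, at 0.45 (adjusted p = 0.0649), although its 3 arrays with G-CSF were the highest of its 6.

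The beta ring, which holds the proteolytic sites, gave 1 call among 7 genes. Psmb1, a beta subunit without proteolytic activity, stood at 9.50, 9.56 and 9.33 without G-CSF and at 10.22, 9.99 and 10.16 with it. The groups were apart and the rise was 0.66 ± 0.16, or 1.58-fold (adjusted p = 0.018). The 3 genes of the constitutive proteolytic sites differed among themselves in their values. Psmb6, the caspase-like site, was at 9.15, 9.32 and 9.57 without G-CSF and at 9.88, 9.87 and 9.82 with it, which did not overlap but missed the threshold (0.51 ± 0.17, adjusted p = 0.0523), while its other probe passed at 0.57 (adjusted p = 0.0447). Psmb7, the trypsin-like site, was at 10.48, 10.44 and 10.47 without and 10.47, 10.38 and 10.13 with G-CSF, a change of -0.14 ± 0.16 (adjusted p = 0.58), and its other 3 probes gave -0.18, -0.23 and -0.27. Psmb5, the chymotrypsin-like site, was dim and scattered, at 4.70, 5.72 and 4.50 without and 5.81, 4.63 and 5.60 with G-CSF. Its groups overlapped and its change of 0.38 had a standard error of 0.38 (adjusted p = 0.525), so no change of its size was detectable on these arrays. Psmb4, a structural beta subunit, missed the threshold at 0.48 (adjusted p = 0.0594).

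The ATPase ring of the regulatory base gave 4 calls among 5 genes, all upward. Psmc1 was at 7.72, 7.81 and 8.22 without G-CSF and at 8.59, 8.62 and 8.74 with it. No array with G-CSF was below one without, and the rise was 0.73 ± 0.16, or 1.66-fold (adjusted p = 0.0106). Psmc4 moved from 8.84, 8.60 and 8.92 to 9.36, 9.39 and 9.51, without overlap (0.63 ± 0.16, adjusted p = 0.0188). Psmc5 went from 6.96, 6.91 and 7.48 to 7.46, 7.64 and 8.01, so that its groups overlapped by a small margin although each pair rose (0.58 ± 0.16, adjusted p = 0.025). Psmc2 rose by 0.49 ± 0.16 (adjusted p = 0.0495), and Psmc3 was the ATPase gene that did not pass. Whether the ATPase genes differed from the beta ring genes in their response was not tested.

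The remaining regulatory particle genes gave 1 call among 2 base or receptor genes, 1 among 7 lid genes and 1 among 3 base chaperones. Psmd13, a structural lid subunit, was at 9.88, 9.50 and 9.93 without G-CSF and at 10.49, 10.63 and 10.87 with it. The groups did not overlap, and its rise of 0.90 ± 0.17, or 1.86-fold, was the largest of the 38 (adjusted p = 0.00523). Psmd4, a ubiquitin receptor, was at 9.92, 9.68 and 10.08 without and at 10.34, 10.43 and 10.61 with G-CSF, also apart (0.57 ± 0.16, adjusted p = 0.0304). Psmd10, known as gankyrin and a chaperone of base assembly, rose by 0.48 ± 0.16 (adjusted p = 0.0486). Psmd14, the lid enzyme that removes ubiquitin from substrates, gave the lowest value of the members at -0.37 (adjusted p = 0.126), and it was lower in each of the 3 pairs. Psmd1, the scaffold of the base, gave 0.23 on its main probe and did not pass, whereas another of its probes passed at 0.57 (adjusted p = 0.0346).

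The activators Psme1 and Psme2 encode the partner subunits of one cap, PA28, and gave unlike values. Psme2 was at 6.76, 7.24 and 7.29 without G-CSF and at 7.79, 8.05 and 7.96 with it. Its groups were clearly apart and it rose by 0.84 ± 0.16, or 1.78-fold (adjusted p = 0.00568). Psme1 was at 10.49, 10.12 and 10.32 without and 10.47, 10.24 and 10.52 with G-CSF, groups that overlapped almost wholly (0.10 ± 0.16, adjusted p = 0.711). The difference between the responses of these genes was not tested. None of the 3 core assembly chaperones passed, and Psme3ip1, which is no subunit, rose by 0.54 ± 0.15 (adjusted p = 0.0306).

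**Figure D3:**
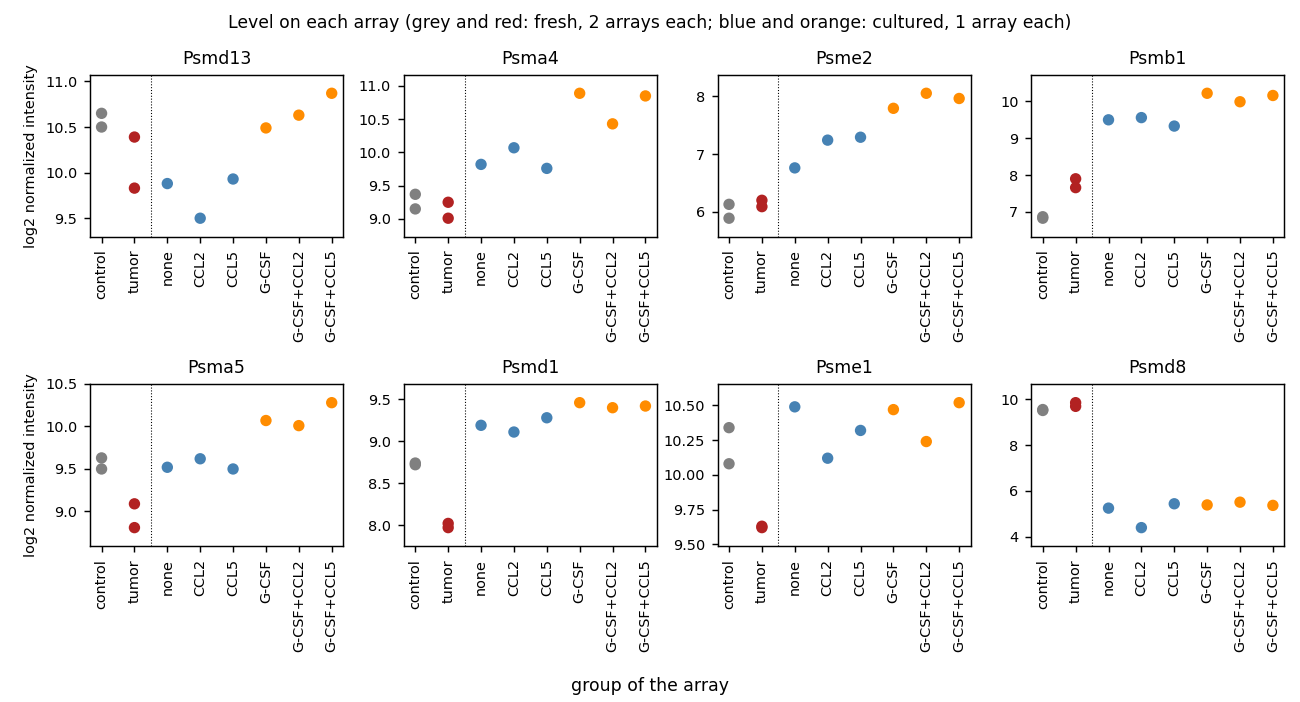
Log2 level on every array of 8 genes named in the text, with 1 point per array. Points are grey for fresh control, red for fresh tumor, blue for culture without G-CSF and orange for culture with it. Psmd13, Psma4, Psme2, Psmb1 and Psma5 lie higher on all 3 arrays with G-CSF than on the 3 cultured arrays without it. Psmb1 is above both control arrays on the tumor arrays, where Psma5, Psmd1 and Psme1 are below them, and Psmd8 falls from above 9 on fresh arrays to between 4.40 and 5.51 in culture.

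Other probes of the genes that rose with G-CSF had the same sign in 6 of 6 cases over 5 genes, of which that of Psmc2 was not detected without G-CSF. None of these other probes passed, with changes from 0.34 to 0.50 and adjusted p from 0.0688 to 0.268 (limma over all detected probes). The calls depended on single matched pairs of arrays. With 1 array per condition, leaving out an array also takes its chemokine-matched partner out of the G-CSF estimate. Fewer residual degrees of freedom then remain. Leaving out the untreated or the G-CSF-only array, which form 1 pair, left 2 calls, Psmd13 and Psme2. Leaving out either array with CCL5 left 3, these and Psmc1, and leaving out either array with CCL2 gave 8, of which Psmb5 was not among the 13. The cultured arrays with G-CSF were also brighter before normalization, with a median scanner signal of the 38 genes of 558 to 725.2 against 335 to 379.6 without it, and an upper-end signal (the 95th percentile over all probes) of 775.2 to 939.6 against 564.4 to 638.2. Scaling each array to the median of all probes gave 29 members that rose and a median of 0.82 for the members and 0.32 for all genes. Scaling to the median of the probes detected on all arrays gave 10 that rose and 2 that fell (Psma8 and Psmc3ip, both dim), with medians of 0.25 and -0.25. Under quantile normalization and these 2 scalings, 30 or 31 of the 38 genes lay above the all-gene median. The signs of single genes depended on the scaling. The change was above 0 for 32 genes under quantile normalization, 36 under scaling to all probes and 28 under scaling to detected probes. Under scaling to all probes Psmb7 and Psmd14 changed sign to 0.27 and 0.21, as did Psmd11 and Psmg2 to 0.31 and 0.21.

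**Figure D4:**
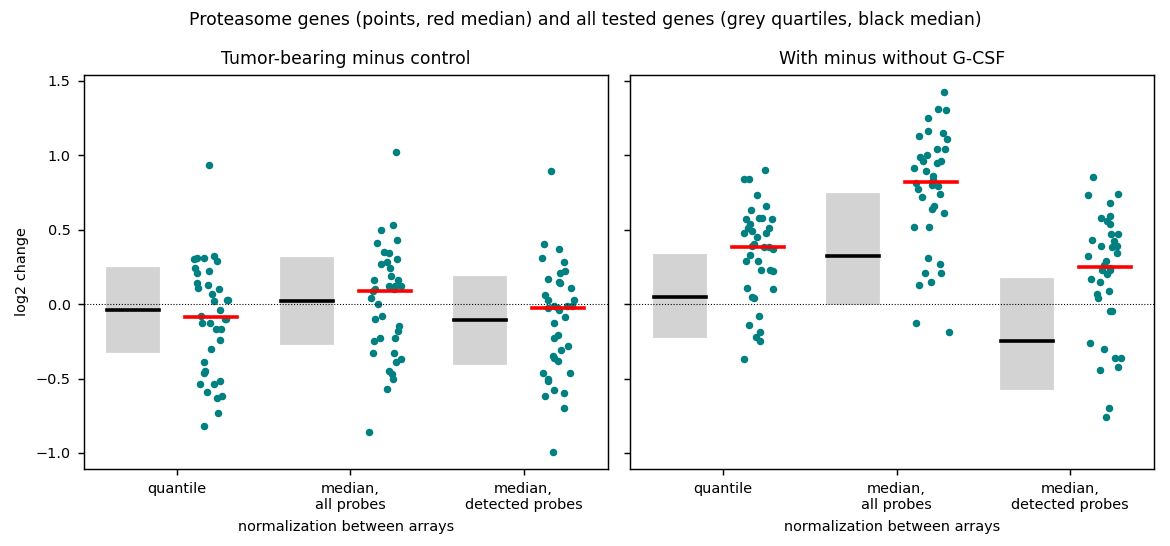
Log2 change of the 38 genes (points) under 3 scalings of the arrays, for G-CSF in culture and for tumor-bearing against control mice, beside the median and quartiles of all genes tested. For G-CSF the median of the members is 0.38, 0.82 and 0.25 while that of all genes is 0.05, 0.32 and -0.25, and in tumor-bearing mice the medians of the members are -0.09, 0.09 and -0.03.

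The promoters of 4 genes with the largest rises with G-CSF, and of the proteolytic site gene Psmb6, are printed to show the sequence from which these genes start. RefSeq windows on GRCm38.p6, from 250 bases before to 50 bases after a gene's start, were matched for 31 of the 38 genes. Each is written from 5′ to 3′ on the gene's strand. Capitals mark matches, on either strand, to any of 5 motifs: TGACNNNGC (the antioxidant response element bound by Nfe2l1 and Nfe2l2), CCAAT (NF-Y), GGGCGG (Sp1), CCGGAAG (ETS factors) and the motif of the nuclear respiratory factor.
Psmd13 promoter, GRCm38.p6 chr7:140882144-140882443, plus strand: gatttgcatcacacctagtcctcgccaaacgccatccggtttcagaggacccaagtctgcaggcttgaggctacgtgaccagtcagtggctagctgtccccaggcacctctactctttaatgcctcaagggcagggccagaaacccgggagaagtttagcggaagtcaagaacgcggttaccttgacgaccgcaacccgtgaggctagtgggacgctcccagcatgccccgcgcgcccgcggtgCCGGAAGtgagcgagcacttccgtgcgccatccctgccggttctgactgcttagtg
Psme2 promoter, GRCm38.p6 chr14:55591052-55591351, minus strand: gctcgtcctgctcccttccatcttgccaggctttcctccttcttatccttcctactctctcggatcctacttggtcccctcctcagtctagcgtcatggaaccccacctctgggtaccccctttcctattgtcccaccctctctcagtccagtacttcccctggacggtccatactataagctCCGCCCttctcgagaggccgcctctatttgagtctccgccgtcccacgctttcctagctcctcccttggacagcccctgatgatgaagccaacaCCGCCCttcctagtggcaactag
Psma4 promoter, GRCm38.p6 chr9:54950609-54950908, plus strand: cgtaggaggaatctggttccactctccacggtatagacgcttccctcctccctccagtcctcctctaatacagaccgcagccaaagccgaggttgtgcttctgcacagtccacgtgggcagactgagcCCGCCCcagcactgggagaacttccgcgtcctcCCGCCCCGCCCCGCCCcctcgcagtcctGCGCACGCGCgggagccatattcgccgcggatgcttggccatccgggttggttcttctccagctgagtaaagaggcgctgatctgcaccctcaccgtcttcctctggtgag
Psmc1 promoter, GRCm38.p6 chr12:100109952-100110251, plus strand: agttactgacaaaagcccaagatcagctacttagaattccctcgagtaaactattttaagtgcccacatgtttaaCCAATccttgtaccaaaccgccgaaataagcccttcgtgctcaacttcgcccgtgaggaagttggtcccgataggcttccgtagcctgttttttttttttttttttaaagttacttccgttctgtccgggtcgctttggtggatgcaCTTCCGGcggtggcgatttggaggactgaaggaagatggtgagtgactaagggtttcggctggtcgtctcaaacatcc
Psmb6 promoter, GRCm38.p6 chr11:70525107-70525406, plus strand: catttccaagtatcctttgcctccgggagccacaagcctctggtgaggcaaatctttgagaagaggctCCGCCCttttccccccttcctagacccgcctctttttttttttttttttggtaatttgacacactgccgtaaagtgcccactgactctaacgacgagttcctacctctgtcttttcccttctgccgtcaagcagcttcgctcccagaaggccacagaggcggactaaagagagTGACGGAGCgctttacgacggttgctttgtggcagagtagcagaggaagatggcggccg
The window printed for Psme2 is the upstream of the 2 that the table holds for that gene. In Psmd13 the ETS motif began 6 bases before the start, and Psmc1 held one 28 bases before it together with a CCAAT box. Psma4 held 4 Sp1 motifs, some of them overlapping, and Psmb6 held the antioxidant response element 9 bases before its start. The ETS motif was found for 13 of the 31 genes (41.9%), against 19.7% of the 7966 tested genes with a window and 9.93% of all 27025 genes with one. The antioxidant response element was found for 5 of 31 (16.1%, against 16.3% of tested genes), the Sp1 motif for 61.3% (65.8%), the CCAAT box for 35.5% (42.7%) and the nuclear respiratory factor motif for 19.4% (11.1%). Of the 12 genes that rose with G-CSF and had a window, 5 held the ETS motif (41.7%) and 0 the antioxidant response element. Of the other 19 genes, 8 held the ETS motif (42.1%) and 5 the antioxidant response element. A match of letters does not show that a factor binds, and a missing match says only that these letters are not in this window.

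The second comparison set fresh neutrophils of tumor-bearing mice beside those of control mice. Of the 38 genes, 1 rose and 4 fell, against 8.07% of all genes that rose and 11.6% that fell (limma across the 4 fresh arrays, adjusted p below 0.05), so the 13.2% of members called lay below the 19.6% of all genes. Both tumor arrays were above both control arrays for 7 of the 38 genes, against 25.9% of all genes, and below both for 14, against 32.8%. The median change was -0.09 for the 38 genes and -0.04 for all genes, with single members from -0.82 to 0.93. The sign of the members' median depended on the scaling, since it was 0.09 under scaling to the median of all probes.

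Psmb1 was at 6.83 and 6.87 in control mice and at 7.66 and 7.90 in tumor-bearing mice. Both tumor arrays were above both control arrays, and the rise was 0.93 ± 0.18, or 1.90-fold (adjusted p = 0.00455). It was the single beta ring gene called in this comparison. Psmb5 was at 5.73 and 5.19 in control and 5.65 and 5.49 in tumor-bearing mice (0.11 ± 0.21, adjusted p = 0.776). Psmb6 was at 8.16 and 8.32 against 8.19 and 8.55 (0.13 ± 0.20, adjusted p = 0.697), and Psmb7 at 9.67 and 9.31 against 9.65 and 9.48 (0.07 ± 0.20, adjusted p = 0.841). On these main probes the groups overlapped for each of the 3 genes of the proteolytic sites. The other Psmb7 probes gave 0.54 (8.48 and 8.44 against 8.80 and 9.21) and 0.19, without overlap, and -0.07, and none passed (adjusted p = 0.0845 for the first).

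The genes that fell came from 4 roles. Psmd1, the base scaffold, was at 8.74 and 8.72 in control and 8.02 and 7.97 in tumor-bearing mice. The groups were well apart and it fell by 0.73 ± 0.18, or 1.66-fold (adjusted p = 0.0136). Another of its probes gave -0.58 and did not pass (adjusted p = 0.082), and the remaining one was not detected on the tumor arrays. Psma5 of the alpha ring was at 9.63 and 9.50 against 9.09 and 8.81, which did not overlap (a log2 change of -0.62 ± 0.19, adjusted p = 0.0408). Psme1, a PA28 activator subunit, was at 10.08 and 10.34 against 9.62 and 9.63, likewise apart (-0.59 ± 0.18, adjusted p = 0.0456). The other Psme1 probe gave -0.22 and did not pass (adjusted p = 0.485). Its partner Psme2 was at 5.89 and 6.13 against 6.20 and 6.09 and overlapped (0.14 ± 0.18, adjusted p = 0.663). Psmg2, a chaperone that helps to assemble the alpha ring, was at 5.15 and 5.80 in control mice and at 4.64 and 4.68 on the tumor arrays, where it was not detected. Its log2 change was -0.82 ± 0.22 (adjusted p = 0.0249). Its other probe, also not detected on the tumor arrays, gave -0.79 ± 0.19 (adjusted p = 0.0139). Against the lowest detected signal of the tumor arrays, the mean falls were 1.53-fold and 1.42-fold. These 2 values were not tested and hold for the background-corrected signals only. Psmg2 was not called without background correction (-0.26, adjusted p = 0.0928). Psme3, the nuclear activator, came close at -0.63 ± 0.21 (adjusted p = 0.0601), and none of the 5 ATPase genes passed.

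Leaving out either tumor array left Psmb1 as the only call, whereas Psmb1 was called in each of the 15 alternative analyses of this comparison. The other probes of the called genes had the same sign in 4 of 4 cases over 3 genes, although 2 of these probes were not detected on the tumor arrays. Only that of Psmg2 passed. Psmd10, at 0.31 and not called on its main probe, had another probe that passed at 0.68 (adjusted p = 0.0358) and one at 0.52 that did not. Across the alternatives the number of called members ranged from 1 to 10.

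A contrast over all 10 arrays tested whether the change in tumor-bearing mice differed from the change with G-CSF. It differed for 8 of the 38 genes, in each case with the tumor change below the G-CSF change, against 13.2% of all genes with a lower and 7.88% with a higher tumor change. Psmd13 had the widest gap, -1.36 ± 0.28 (adjusted p = 0.00512), with values of -0.46 in tumor-bearing mice and 0.90 with G-CSF. Psma5, which fell in the first and rose in the other, differed by -1.19 ± 0.25 (adjusted p = 0.00501). The ATPase genes Psmc2, Psmc4 and Psmc3 also differed, by -1.03, -1.02 and -0.85. Psmb1 rose in both comparisons, and no difference between its changes was called (0.27, adjusted p = 0.487). Without tumor replicate 2 the count was 3 (Psma5, Psmd1 and Psmd13), and without either control array or either array with CCL5 it was 5.

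The third comparison set neutrophils kept for 2 h in culture beside the fresh control neutrophils, with G-CSF and the chemokines as separate terms. Culture and the separate experiment in which it was done cannot be told apart. Of the 38 genes, 8 were higher and 3 lower in culture, against 16.4% and 17.8% of all genes. All 6 cultured arrays were above both control arrays for 16 of the 38 genes, against 20.1% of all genes, and below for 2, against 21.2%. Neutrophil markers also differed, with 1 higher and 5 lower of 9 in culture (median -0.65), as did the 4 T cell markers, all higher, and the erythroid markers (median -2.49), and their part in these results was not tested.

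Of the higher genes, 4 encode beta subunits, so that the beta ring gave 4 calls among 7 genes with a median change of 0.73. Psmb1, at 6.83 and 6.87 fresh and between 9.33 and 10.22 on the 6 cultured arrays, rose most, by 2.67 ± 0.20 or 6.38-fold (adjusted p = 5.35e-07), and by 2.02 without background correction. Psmb7 rose by 1.05 ± 0.21 (adjusted p = 0.00163) and Psmb6 by 1.02 ± 0.22 (adjusted p = 0.00242), with their other probes between 0.76 and 1.58. Psmb4 rose by 0.73 ± 0.20 (adjusted p = 0.0116). The other genes that rose were Psmd14, Psme2, Psmd10 and Psma4, by 0.95, 0.85, 0.78 and 0.67. The other probes of Psmd10 gave 1.09 and -0.05, and the call of Psma4 held in 9 of 20 alternatives. The other probe of Psmd14 gave 0.62 and did not pass (adjusted p = 0.0971). Among genes not called on their main probe, other probes passed upward for Psmb2 (0.90), Psme1 (0.73), Psme4 (0.70) and Psmd7 (0.67 and 0.75). Dim other probes passed downward for Psmg2 (-0.73) and for Psmd1 (-0.74, against 0.48 on its main probe). Psmb1 also had the widest range of any beta ring gene over the groups: low in fresh control cells, higher in those of tumor-bearing mice, higher again in culture, and highest on the arrays with G-CSF, with no overlap between neighbouring groups.

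Psmd8, a lid subunit, went the other way. It was at 9.55 and 9.51 in fresh control and 9.69 and 9.85 in fresh tumor neutrophils, and between 4.40 and 5.51 on the 6 cultured arrays. Fresh and cultured arrays did not come near each other, and the difference of -4.41 ± 0.27 was 21.3-fold (adjusted p = 8.12e-08). Without background correction, and with the authors' values, it was -2.75. The cultured levels lie near background, the probe was not detected on the CCL2 array, and it is the single probe read for this gene. Psme3ip1 was also lower in culture, at -1.36 ± 0.19 (adjusted p = 9.94e-05), with its other probe at -1.19. Psmd13, the gene with the largest rise with G-CSF, was lower in culture without it, at -0.84 ± 0.24 (adjusted p = 0.014). On the arrays with G-CSF it stood at 10.49, 10.63 and 10.87, beside 10.65 and 10.50 in fresh control neutrophils.

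The chemokines gave no call among the 38 genes. For CCL2 the changes ran from -0.44 to 0.44 with a median of 0.02, and for CCL5 from -0.46 to 0.53 with a median of 0.09. With limma 0 of 9744 genes passed for either chemokine, and at an unadjusted p below 0.05 the counts were 474 genes (4.86%) and 0 members for CCL2, and 393 genes (4.03%) and 1 member for CCL5. That member was Psmc5, at 0.53 ± 0.19 (unadjusted p = 0.022, adjusted p = 0.997), named after its value was seen. With 2 residual degrees of freedom, these values do not show that the chemokines left the genes alone.

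Genes that work with the proteasome were read from lists of partners, of ubiquitin and p97, and of transcriptional regulators. With G-CSF, 2 of the 10 regulators tested rose and 0 fell, near the 14.4% of all genes that rose. Nfe2l1, the factor known to raise proteasome gene transcription, was at 8.78, 8.87 and 8.86 without G-CSF and at 9.45, 9.43 and 9.75 with it. Its groups were far apart relative to their spread, and it rose by 0.71 ± 0.16 (adjusted p = 0.0121). Mafg, a small Maf protein that pairs with it on DNA, rose by 0.67 ± 0.16 (adjusted p = 0.013). Of 7 genes of ubiquitin, its activation and p97, 2 rose, namely the p97 cofactors Faf1 (1.27, adjusted p = 0.00103) and Nsfl1c (0.96, adjusted p = 0.00243). Of 9 partner genes, Ubqln4, a shuttle for tagged proteins, rose by 0.62 (adjusted p = 0.0199), and Zfand2a, a stress-induced partner of the proteasome, fell by 0.50 (log2 -0.50, adjusted p = 0.0456).

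In tumor-bearing mice the regulator that rose was Nfe2l2, the factor of the oxidative stress response, by 1.87 ± 0.20 (adjusted p = 6.65e-05), and no regulator fell. The partner Rad23b, another shuttle, fell by 0.77 on the log2 scale (adjusted p = 0.0254), and 0 of the 7 ubiquitin and p97 genes were called. Of the 3 immunoproteasome genes, Psmb10 fell in tumor-bearing mice (-1.05 ± 0.20, adjusted p = 0.00416), and 0 were called with G-CSF. Nfe2l1 and Nfe2l2 differed between the comparisons in opposite directions, with tumor minus G-CSF changes of -0.86 (adjusted p = 0.0202) and 1.29 (adjusted p = 0.00901). In culture against fresh control, Nfe2l2 rose by 2.38 and Stat3 was at -1.53. The partner Pomp, which matures the core, rose by 1.32 (adjusted p = 0.000158), while 4 of the 9 partners fell, with Uchl5, a ubiquitin-removing enzyme of the regulatory particle, at -1.93 (adjusted p = 1.07e-05).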

How the data were processed

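The authors deposited a table of scanner output in which, per the file headers, each array has a signal intensity averaged over beads, a count of beads, their standard error and a detection p-value per probe. They also deposited processed log2 values, which equalled quantile-normalized log2 signals without background correction to within 0.00531. Partek is named in the submitters' processing notes, with its role and version not given in the sources used here.

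Intensities were corrected with limma's nec (normexp, offset 16, negative controls inferred from the detection p-values), taken to log2 and quantile-normalized (limma 3.58.1, R 4.3.3). Of 45281 probes, 34885 were annotated to 1 gene, 18 to several and 10378 to none, and 34807 matched RefSeq by Entrez ID. Probes detected at p below 0.05 on 2 or more of 10 arrays were kept (17981), and the brightest per gene gave 9744 genes. Two-sided moderated tests (lmFit, eBayes) were adjusted by Benjamini-Hochberg over all genes at 0.05, with 2 residual degrees of freedom for the tumor and the culture fits and 4 for fits over all arrays. For a member not detected on any array of a group, the fold change is taken against the lowest detected signal per array. The p-value given for it is that of the plain log2 change. Each array had 13227 to 14846 detected probes and a median of 43 or 44 beads per probe. The deviations of replicate 1 from its group mean hardly correlated between control and tumor arrays (0.0617). With 2 arrays per group this cannot settle whether replicate numbers paired the samples.

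All members are covered. Values per array are given for the 10 largest called changes of the tumor and G-CSF comparisons, for Psmb5, Psmb6 and Psmb7 and for Psme1 and Psme2, and up to 3 genes per direction are named from other lists. The members and lists were chosen with earlier results of these data known. The code was tested on simulated data. Alternatives to background correction, scaling, probe filter and replicates are given at the end.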

Additional observations from a re-analysis of the deposited data

Results flagged for a closer look

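In 8 proteasome genes the change in tumor-bearing mice differed from the change with G-CSF, by a limma contrast over all 10 arrays that tested the difference itself. As tumor minus G-CSF on the log2 scale, the differences were -1.36 ± 0.28 for Psmd13 (adjusted p = 0.00512), -1.19 ± 0.25 for Psma5 (0.00501), -1.03 ± 0.25 for Psmc2 (0.0108) and -1.02 ± 0.25 for Psmc4 (0.0111). They were -0.97 ± 0.28 for Psma4 (adjusted p = 0.0262), -0.96 ± 0.23 for Psmd1 (0.00939), -0.93 ± 0.27 for Psme3 (0.0282) and -0.85 ± 0.27 for Psmc3 (0.0421). Psma5 was called in both directions, falling in tumor-bearing mice and rising with G-CSF. Psmd1 was called in tumor-bearing mice only, and Psmd13, Psmc2, Psmc4 and Psma4 with G-CSF only. Psme3 and Psmc3 were called in neither. The comparisons share no arrays, one being of fresh and the other of cultured cells. Psma5, Psmd1 and Psmd13 kept the call in each of the 20 alternative analyses.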

How the results depend on the processing

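No change of a called member changed sign under any alternative. Of the 38 members, 5 were called in tumor-bearing mice. The count was 10 (4 of the 5 among them) without background correction and with the authors' values, 8 with an offset of 50 and with probes detected on all arrays, 3 with scaling to the median of all probes, 2 with no filter, 6 with a replicate block, and 1 to 5 with 1 array left out. With G-CSF 13 were called, and the count was 29 with scaling to the median of all probes. It was 2 to 8 with 1 array left out, which in this fit also takes out the matched partner array. In culture 11 were called, and the count was 8 to 11 with 1 array left out, and no other alternative moved it by over 1.5 times. Between tumor and G-CSF 8 differed, and the count was 16 without background correction, with an offset of 50 and with the authors' values, 22 with scaling to the median of all probes, 13 with probes detected on all arrays and 3 to 8 with 1 array left out. CCL2 and CCL5 gave 0 throughout. Leaving out Psmc3ip and Psme3ip1, which was chosen after seeing the data, gave 12 with G-CSF and 5 in tumor-bearing mice. The causes were not tested. A lone remaining array was assumed to vary like the other group, and whether replicate numbers paired the samples was not stated.

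Over all genes, 2457 were called with G-CSF (57.2% higher), 4491 (88.9% higher) with scaling to all probes and 4281 (28.5%) with scaling to detected probes. For tumor minus G-CSF the calls were 2059 (37.3% higher), 3176 (15.4%) and 2423 (51.9%), and in tumor-bearing mice 1912, with 1249 and 1076 without tumor replicate 1 and 2. In culture the share of higher calls was 47.9%, and 35% or 57% with those scalings. Dim members such as Psmb5, Psmd9 and Psma8 lie near background, which limits what their values can show.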

Other observations

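Psmb9, the immunoproteasome counterpart of Psmb6, had the same fresh-against-culture pattern as the lid gene Psmd8: its log2 levels were 10.58 to 10.92 on the 4 fresh arrays and 5.07 to 6.16 on the 6 cultured arrays (-5.88 ± 0.23, adjusted p = 1.34e-09, limma). Psmb6 was higher in culture by 1.02 ± 0.22 over the same arrays (adjusted p = 0.00242). Psmb9 was chosen after its values were seen. Other probes of the called members had the same sign as the main probe in 7 of 8 cases over 5 genes for culture against fresh control. The exception was a probe of Psmd10 at -0.05.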
